A study of Mus musculus with 7 samples.

Results

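The genes described here encode acute phase proteins of the serum amyloid A family (Saa1, Saa2, Saa3 and Saa4), the orosomucoids (Orm1, Orm2 and Orm3) and lipocalin 2 (Lcn2). They were taken by symbol from a table of 54532 genes in mouse liver, and all 8 were found once each. All 8 had a mean of at least 1 FPKM (fragments scaled to gene length and to sequencing depth) and were among the 11394 genes tested. RNA was sequenced from livers of old C57BL/6 mice in 7 libraries. The 3 MDL-800 libraries came from animals on a standard diet following supplementation with MDL-800, a small-molecule activator of the NAD-dependent deacetylase SIRT6. The 4 control libraries came from animals on a standard diet alone. The labels used here give no dose, exact age or sex, nor whether each library is from an animal of its own, and p-values therefore reflect only the variation among these 7 libraries. The comparison addresses how the livers of supplemented animals differ from those of controls.

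Serum amyloid A proteins are small apolipoproteins that hepatocytes secrete onto high density lipoprotein when interleukin-6, interleukin-1 or tumour necrosis factor reach the liver. Orosomucoids, also called acid glycoproteins, are plasma lipocalins that bind basic drugs and lipids. Lipocalin 2 captures bacterial siderophores and so withholds iron, and it is made both by inflamed hepatocytes and by neutrophils. The transcription factors STAT3, NF-kB and C/EBP drive many genes of this response.

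The 8 genes lie in 3 places of the genome, and their listed coordinates match GENCODE M21 on GRCm38. Saa3 (46711998 to 46715700), Saa4 (46727998 to 46732603) and Saa1 (46740497 to 46742980) lie on the minus strand of chromosome 7, and Saa2 (46751790 to 46754313) lies next to Saa1 on the plus strand. Orm1 (63344560 to 63348163), Orm3 (63356162 to 63359511) and Orm2 (63362449 to 63365878) lie in a row on the plus strand of chromosome 4. Lcn2 (32384633 to 32388252) lies on the minus strand of chromosome 2. The library chemistry does not mark strand, and no other annotated gene overlaps any of the 8.

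Saa1 and Saa2, and likewise Orm1 and Orm2, are close copies, and how far their reads can be told apart decides how their values are read. The coding sequences of Saa1 and Saa2 (366 bases each) differed at 18 positions, an identity of 95.1%. The 60 coding bases with most differences, from base 90 to base 149 of each coding sequence in the GENCODE M21 transcripts, are shown with the differing bases in capitals.
Saa1: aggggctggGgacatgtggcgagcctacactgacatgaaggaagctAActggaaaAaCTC
Saa2: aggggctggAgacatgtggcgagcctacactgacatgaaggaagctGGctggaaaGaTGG
Orm1 and Orm2 (621 coding bases each) differed at 63 positions, an identity of 89.9%, and the densest stretch of differences runs from base 138 to base 197.
Orm1: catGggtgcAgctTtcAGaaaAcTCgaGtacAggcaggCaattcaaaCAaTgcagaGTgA
Orm2: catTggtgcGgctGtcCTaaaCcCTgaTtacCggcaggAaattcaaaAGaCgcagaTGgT
Of the windows of 50 bases along the Saa1 transcript, 13.2% also occurred in the Saa2 transcript without a mismatch. The share was 20.4% for Orm1 in Orm2, 2.204% for Orm1 in Orm3 and 3.58% for Orm2 in Orm3. For Saa1 in Saa3 it was 1.61%, and 1.78% of the Saa3 windows occurred in Saa1. Saa3 held 127 to 785 reads per library, where Saa1 held 2205 to 9962. Saa4 shared no such window with Saa1, Saa2 or Saa3. The read length and the treatment of reads that match several genes were not stated in the labels. The deposited values of all 8 genes correspond to whole reads, so no read was divided in fractions between paralogs. The windows were taken from a single spliced transcript of each gene, and the listed lengths of Saa1, Saa2 and Saa3 are longer, as given below. Sequence outside those transcripts was not compared. Reads there and in the shared windows remain uncertain, and paralog sums are therefore given beside the single genes. The annotated pseudogene Saa-ps held 0 reads in all 7 libraries, and Gm11212, a pseudogene between Orm1 and Orm3, held 0 reads in the 3 MDL-800 libraries and 0, 5, 2 and 8 reads in control 1 to 4.

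Upstream sequence from RefSeq was at hand for 7 of the 8 genes on GRCm38.p6, all but Orm1, and the 250 bases before the annotated start were searched on both strands. Promoters of 1 gene from each family, and of the Saa2 copy of Saa1, are shown with matches in capitals. The motifs were TTGCNNAA for C/EBP, GGG and CC parted by 5 bases of any kind for NF-kB, TTCNNNGAA for STAT factors and TATAAA for a TATA box. Matches of different motifs do not overlap, and the C/EBP letters of Orm2 match on both strands. The RefSeq starts of Saa2, Saa3 and Lcn2 lie inside the listed gene. The windows of Saa2 and Saa3 therefore include bases that the listed gene also covers, and the window of Lcn2 lies wholly within it.
Saa1, chr7:46742981-46743230, minus strand: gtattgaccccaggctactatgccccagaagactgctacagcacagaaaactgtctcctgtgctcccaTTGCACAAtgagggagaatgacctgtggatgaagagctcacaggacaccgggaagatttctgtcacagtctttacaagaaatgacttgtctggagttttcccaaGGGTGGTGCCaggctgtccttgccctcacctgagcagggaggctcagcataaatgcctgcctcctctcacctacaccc
Saa2, chr7:46751583-46751832, plus strand: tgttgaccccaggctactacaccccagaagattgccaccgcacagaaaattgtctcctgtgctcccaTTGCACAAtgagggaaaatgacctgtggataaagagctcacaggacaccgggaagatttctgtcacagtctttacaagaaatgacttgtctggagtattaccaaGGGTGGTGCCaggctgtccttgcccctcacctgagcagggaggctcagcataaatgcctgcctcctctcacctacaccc
Orm2, chr4:63362199-63362448, plus strand: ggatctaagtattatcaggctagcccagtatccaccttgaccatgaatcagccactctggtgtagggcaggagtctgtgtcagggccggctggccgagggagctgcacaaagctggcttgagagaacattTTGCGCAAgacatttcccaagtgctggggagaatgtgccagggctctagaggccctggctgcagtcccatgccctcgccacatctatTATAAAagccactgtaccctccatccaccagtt
Lcn2, chr2:32387740-32387989, minus strand: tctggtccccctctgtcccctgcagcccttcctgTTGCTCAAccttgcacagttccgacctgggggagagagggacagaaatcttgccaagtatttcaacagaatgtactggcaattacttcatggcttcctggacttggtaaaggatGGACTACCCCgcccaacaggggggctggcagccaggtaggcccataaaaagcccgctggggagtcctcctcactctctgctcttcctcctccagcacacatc
The C/EBP letters occurred in 7 of the 7 promoters, against 9.56% of 32851 RefSeq promoters of the same length. The NF-kB letters occurred in 4 of 7, in Saa1, Saa2, Saa4 and Lcn2, against 45.8% of all promoters. A TATA box stood in the promoters of Orm2 and Orm3, 33 and 29 bases before the start, and 12.4% of all promoters held those letters. The STAT letters occurred in none of the 7 windows and in 7.02% of all promoters. Saa1 and Saa2 are 94.8% identical over these upstream bases and Orm2 and Orm3 85.5%, so their matches are not independent.

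Some facts of the libraries bear on every value below. Summed reads recovered from the deposited values ran from 17600066 to 19920469 per library. MDL-800 2 and control 1 held 3514 and 2173 reads of 4 Y-linked genes, and the other 5 libraries, 2 MDL-800 and 3 control, held none. Xist, the RNA of the inactive X chromosome, named outside the rule for named genes, was at 0.0108 FPKM in MDL-800 2 and 0.0115 FPKM in control 1. Among those 5 libraries it was at 49.98 and 57.3 FPKM in MDL-800 1 and 3 and at 60.4 and 63.5 FPKM in control 2 and 4, but it was listed at 0 in control 3, which so differs from the other 4. Markers of hepatocytes were high throughout, with a summed level of 58040 to 63133 FPKM in MDL-800 and 56111 to 84919 FPKM in control. Of the 8 hepatocyte markers, 4 were below 0, with a median log2 fold change of 0.04. In bulk tissue, fewer cells of a type and less RNA per cell cannot be told apart. Between MDL-800 and control, limma called none of the 11394 genes at an adjusted p under 0.05 (0.00%). At an unadjusted p under 0.05, 553 genes (4.85%) were found, 185 of them lower in MDL-800 (1.62%).

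In MDL-800 against control, the log2 fold changes of all 8 genes were below 0 and their median was -1.21, where the median over all tested genes was 0.02 and 45.8% of them were below 0. None of the 8 passed limma, with an adjusted p of 0.950 for each, on log2(FPKM + 1) values. At an unadjusted limma p under 0.05, 6 of the 8 were lower, against the 1.62% of all tested genes given above, and the 6 were Saa1, Saa2, Saa3, Orm1, Orm2 and Orm3. Leaving out MDL-800 1 left 2 of 8 (1.01% of all genes tested), and leaving out MDL-800 2 also left 2 of 8 (1.64%). The count was 3 without control 2 (2.30%) and 3 without control 4 (1.19%). In the 5 libraries without Y-linked reads it was 2 (1.98%). Every MDL-800 library lay below every control library for 4 of the 8 genes, Saa1, Saa3, Orm1 and Orm2, against 2.42% of all tested genes. The 8 genes were picked with earlier results of these data known and several move together, so these counts describe them and are not separate observations.

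**Figure D1:**
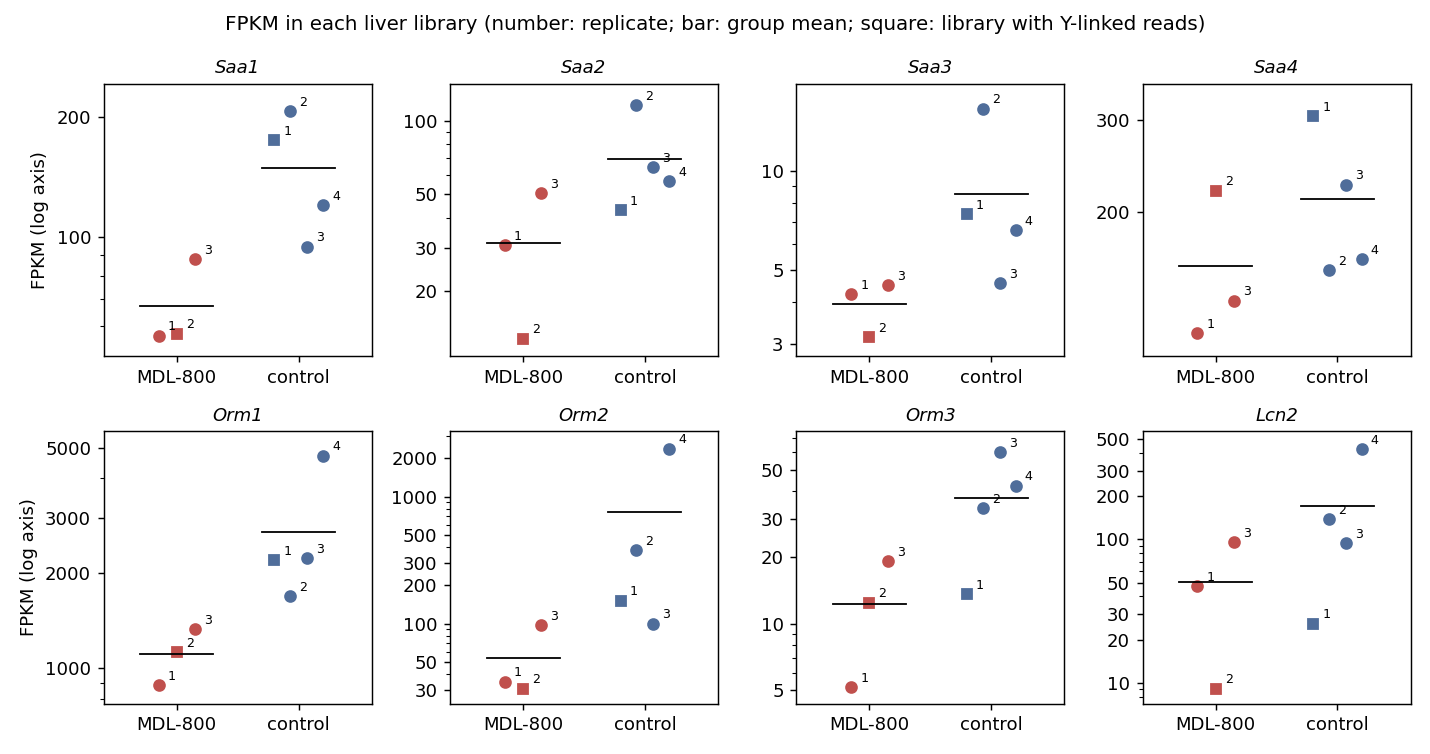
FPKM (log axis) of the 8 genes in each library, with MDL-800 left of control, the replicate number beside each point, a bar at the group mean and a square for libraries with Y-linked reads. Groups are apart for Saa1, Saa3, Orm1 and Orm2, and control 4 stands above the other controls for Orm1, Orm2 and Lcn2.

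Orm1 was the most abundant of the 8 genes in every library. Orm1, which encodes an orosomucoid of plasma, had 883.3, 1121 and 1332 FPKM in MDL-800 1, 2 and 3, against 2201, 1692, 2238 and 4715 FPKM in control 1 to 4. Every MDL-800 library was below the lowest control, and control 4 was 2.11 times the next highest control. The mean was 1112 ± 224 FPKM in MDL-800 livers (SD, n = 3), with 2711 ± 1359 FPKM in control livers (SD, n = 4), and the log2 fold change was -1.19 with a standard error of 0.36 (95% interval from -2.04 to -0.34). The exact two-sided permutation p was 0.0571 over 35 assignments, the smallest possible being 0.0286. Orm1 reads made up 0.0644% to 0.0947% of each MDL-800 library and 0.132% to 0.300% of each control library.

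Orm2, a paralog of Orm1, varied more than any of the other 7 genes. It had 34.7, 30.6 and 96.5 FPKM in MDL-800 1, 2 and 3, against 150.9, 378.9, 99.96 and 2392 FPKM in control 1 to 4. MDL-800 3 and control 3 were nearly level, and control 4 was 6.31 times the next highest library. The log2 fold change was -2.84 with a standard error of 1.08, and -1.91 without control 4. The exact permutation p was 0.0571, and the highest library exceeded the lowest by a factor of 78.3.

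Orm3, the least abundant orosomucoid, had 5.17, 12.5 and 19.2 FPKM in MDL-800 1, 2 and 3, against 13.6, 33.5, 60.02 and 42.4 FPKM in control 1 to 4. The groups overlapped, since control 1 was below MDL-800 3. The highest library was control 3, unlike Orm1 and Orm2, whose highest was control 4. Its log2 fold change was -1.52 with a standard error of 0.57, and the exact permutation p was 0.0857. These values rest on 69 to 657 reads per library.

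Orm1 made up most of the orosomucoid FPKM everywhere, and the share of Orm2 varied. Summed over Orm1, Orm2 and Orm3, the level was 923.1, 1164 and 1447 FPKM in MDL-800 1, 2 and 3, against 2365, 2104, 2398 and 7149 FPKM in control 1 to 4. The sums did not overlap between groups, and their difference on the log2 scale was -1.39. Orm2 made up 3.75%, 2.62% and 6.67% of the sum in the MDL-800 libraries. In control 1 to 4 its share was 6.38%, 18.0%, 4.17% and 33.5%. Those of control 2 and control 4 were therefore above the other 5, while those of control 1 and control 3 lay within the MDL-800 range.

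Saa1, an inducible serum amyloid A, had 56.6, 57.3 and 87.9 FPKM in MDL-800 1, 2 and 3, against 175.3, 206.6, 94.7 and 120.2 FPKM in control 1 to 4. All MDL-800 libraries were below all controls, with MDL-800 3 close to control 3, the lowest control. Means were 67.3 ± 17.9 FPKM in MDL-800 livers (SD, n = 3), with 149.2 ± 51.0 FPKM in control livers (SD, n = 4). The log2 fold change was -1.10 with a standard error of 0.31 (95% interval from -1.83 to -0.37), and the exact permutation p was 0.0571.

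Saa2, the other inducible copy, had 30.9, 12.7 and 50.4 FPKM in MDL-800 1, 2 and 3, against 42.9, 115.5, 64.4 and 56.5 FPKM in control 1 to 4. The groups overlapped through MDL-800 3 and control 1. The log2 fold change was -1.23 with a standard error of 0.50, and -0.71 without MDL-800 2. Its permutation p, exact, was 0.0857.

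Saa2 took a smaller share of the inducible copies in MDL-800 2 and control 1, both with Y-linked reads, than elsewhere. Saa2 made up 18.2% of the summed FPKM of Saa1 and Saa2 in MDL-800 2 and 19.6% in control 1. In the other 5 libraries it made up 35.3% and 36.4% in MDL-800 1 and 3, and 35.9%, 40.5% and 32.0% in control 2, 3 and 4. The sum of both genes was 87.5, 69.97 and 138.4 FPKM in MDL-800 1, 2 and 3, against 218.1, 322.2, 159.0 and 176.8 FPKM in control 1 to 4. These sums did not overlap, with a log2 difference of -1.15.

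**Figure D2:**
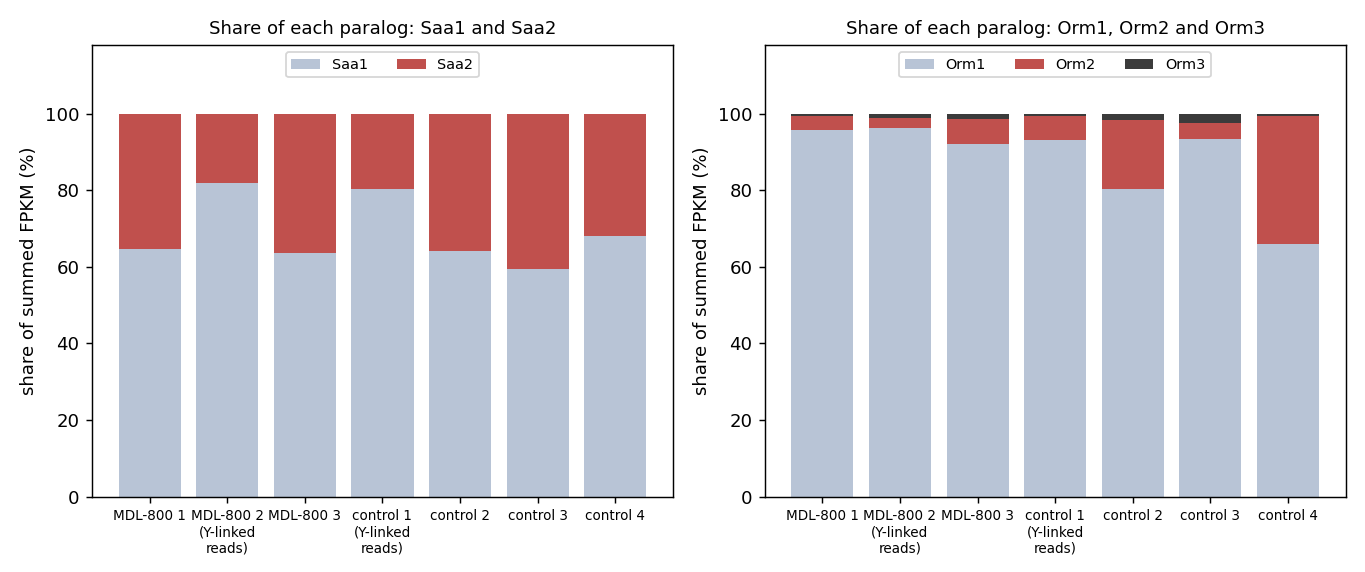
Share of each paralog in the summed FPKM of Saa1 and Saa2 (left) and of Orm1, Orm2 and Orm3 (right) in each library, in percent. The Saa2 share is lowest in the libraries with Y-linked reads (18.2% and 19.6%), and the Orm2 share is highest in control 4 (33.5%) and control 2 (18.0%).

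Saa3, known in mice as the serum amyloid A of macrophages and adipose tissue as well as liver, was the lowest of the family. It had 4.24, 3.14 and 4.50 FPKM in MDL-800 1, 2 and 3, against 7.41, 15.5, 4.58 and 6.61 FPKM in control 1 to 4. The groups did not overlap, but MDL-800 3 and control 3 nearly met. The log2 fold change was -0.83 with a standard error of 0.35, and -0.53 without control 2, which held 2.09 times the next highest level. Control 2 also had the highest summed level of the 12 macrophage and Kupffer cell markers, 2783 FPKM, where the other controls had 331.1 to 1112 FPKM and the MDL-800 libraries 297.6 to 1150 FPKM. Of those markers, 11 of 12 were below 0, with a median log2 fold change of -0.41, none passed limma and none was at 0 in all libraries. Their part in the Saa3 values was not tested. Il1b, a macrophage cytokine that induces acute phase genes, was named outside the rule for named genes. It was also highest in control 2, at 18.1 FPKM, and between 1.63 and 4.61 FPKM in the other 6 libraries. Its part in the Saa3 values was not tested either.

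Saa4, the constitutive serum amyloid A, had 116.8, 219.1 and 134.9 FPKM in MDL-800 1, 2 and 3, against 304.6, 154.5, 225.0 and 162.0 FPKM in control 1 to 4. The groups overlapped widely. The log2 fold change of -0.43 was the nearest to 0 of the 8 genes, with a standard error of 0.32 (95% interval from -1.17 to 0.32) and an exact permutation p of 0.286. It was -0.69 without MDL-800 2, -0.24 without MDL-800 1 and -0.23 without control 1.

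Lcn2 had 47.3, 9.10 and 95.3 FPKM in MDL-800 1, 2 and 3, against 25.7, 138.0, 94.5 and 426.3 FPKM in control 1 to 4. Control 1 was below 2 of the MDL-800 libraries, and control 4 was 3.09 times the next highest library. Means were 50.6 ± 43.2 FPKM in MDL-800 livers (SD, n = 3), with 171.1 ± 176.3 FPKM in control livers (SD, n = 4). The log2 fold change was -1.62 with a standard error of 1.07 (95% interval from -4.14 to 0.90), and it was -0.97 without control 4 and -0.70 without MDL-800 2. Its permutation p, exact, was 0.286.

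Neutrophils also make Lcn2, and their markers went with it in some libraries and not in others. The 12 neutrophil markers summed to 98.6, 13.6 and 47.1 FPKM in MDL-800 1, 2 and 3, against 44.2, 356.4, 54.5 and 29.8 FPKM in control 1 to 4. Control 4, where Lcn2 was highest, was thus the lowest of the controls. Control 2, second highest for Lcn2 at 138.0 FPKM, had the highest sum. MDL-800 2 was the lowest library for both. The part of neutrophils in the Lcn2 values was not tested. All 8 of the neutrophil markers that were tested lay below 0 on the log2 scale (median -0.62), and none passed limma. Elane, the neutrophil elastase, had the smallest limma p of these, at 1.04 ± 0.687 FPKM in MDL-800 livers (SD, n = 3), with 2.496 ± 1.89 FPKM in control livers (SD, n = 4). Fat tissue also expresses orosomucoids and lipocalin 2. The adipocyte markers Adipoq, Plin1 and Retn, named outside the rule for named genes, were at 1.52, 0.219 and 0.644 FPKM in control 4. In the other 6 libraries Plin1 and Retn were at 0, and Adipoq was at 0 except for 0.0511 FPKM in control 3. Lep was at 0 in all 7. Fabp4 was instead highest in control 2, at 4.37 FPKM, with 3.20 FPKM in control 4. Cfd was at 13.2 FPKM in control 4 and supplied most of the sum there, but it was also at 5.23 FPKM in MDL-800 2. The 6 adipocyte markers summed to 18.8 FPKM in control 4 and to 0.869 to 6.78 FPKM in the other libraries. Only 2 of them were tested, both below 0, with a median of -0.16. The part of such cells in the control 4 values was not tested.

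**Figure D3:**
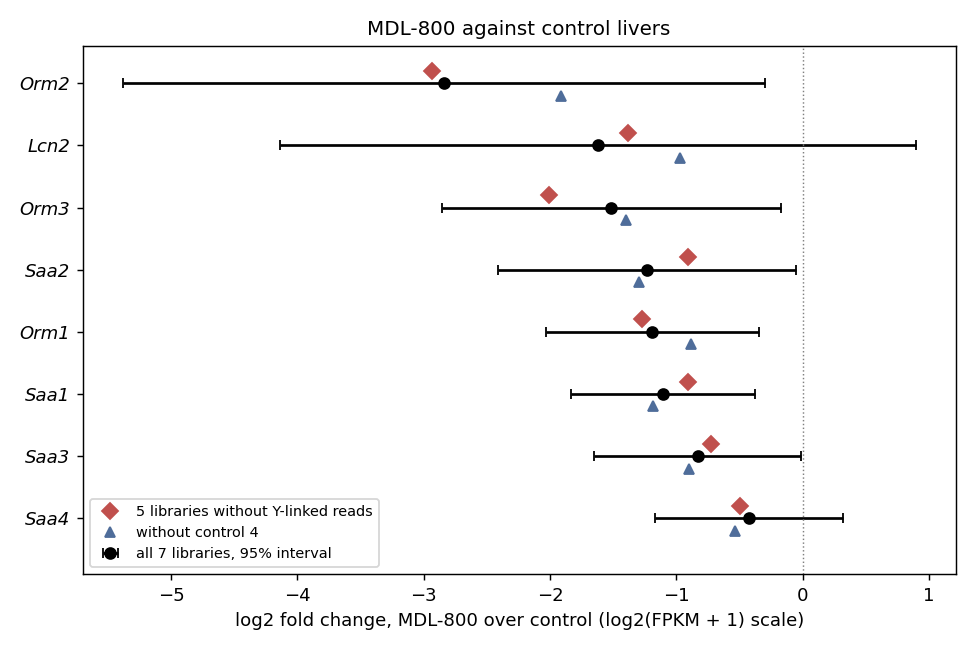
Log2 fold change of MDL-800 over control for each gene with its 95% limma interval (black), in the 5 libraries without Y-linked reads (red diamonds) and without control 4 (blue triangles). All values lie below 0, and the intervals of Lcn2 and Saa4 include 0.

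Levels can be ordered only with the listed gene lengths in mind. By the deposited FPKM over all 7 libraries the order was Orm1 (2026 FPKM), Orm2 (454.7 FPKM), Saa4 (188.1 FPKM), Lcn2 (119.5 FPKM), Saa1 (114.1 FPKM), Saa2 (53.3 FPKM), Orm3 (26.6 FPKM) and Saa3 (6.57 FPKM). The second place of Orm2 rests on control 4, and Orm2 was below Saa4 in 5 of the 7 libraries, above it only in control 2 and control 4. In MDL-800 the mean of Orm2, 53.9 FPKM, was below those of Saa4 (156.95 FPKM) and Saa1 (67.3 FPKM). Orm2, Saa4, Lcn2 and Saa1 therefore have no order beyond the spread over libraries. The listed length of Saa1 was 2478 bases, 4.07 times its spliced coding transcript of 609 bases, and for Saa2, Saa3 and Lcn2 the factor was 4.16, 4.70 and 2.87. Saa4 and the orosomucoids were listed at the length of 1 spliced transcript. Per length of the spliced transcript, Saa1 averaged 273.7 in MDL-800 and 607.1 in control, above Saa4 with 156.95 in MDL-800 and 211.5 in control, on the deposited depth scale. The order of levels between these genes thus depends on the length used, while differences between libraries within a gene do not.

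The libraries also ranked the genes unlike each other. Control 4 was highest for Orm1, Orm2 and Lcn2, control 2 for Saa1, Saa2 and Saa3, control 1 for Saa4 and control 3 for Orm3. The lowest library was MDL-800 1 for Saa1, Saa4, Orm1 and Orm3, and MDL-800 2 for Saa2, Saa3, Orm2 and Lcn2. MDL-800 3 was the highest of its group for all of the genes but Saa4, which was highest in MDL-800 2. No gene had its highest library in MDL-800 or its lowest in control.

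**Figure D4:**
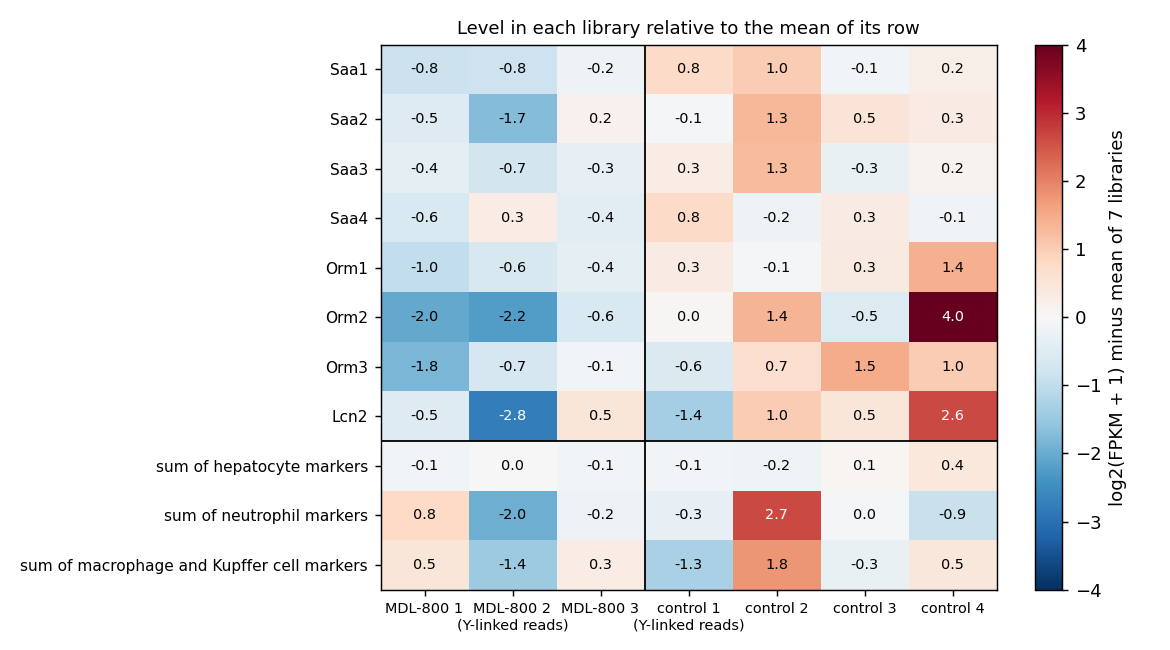
Log2(FPKM + 1) of each gene, and of the summed markers of hepatocytes, neutrophils and macrophages, minus the mean of the row over the 7 libraries, with MDL-800 left of the line. Control 4 is 4.0 above the mean for Orm2 and 2.6 for Lcn2, while neutrophil markers are 0.9 below it there and 2.7 above it in control 2.

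Since MDL-800 2 and control 1 stood apart in Y-linked reads, the groups were compared without them, and the libraries with Y-linked reads were compared with the other 5. In those other 5 libraries all 8 log2 fold changes stayed below 0, at -0.91 for Saa1, -0.91 for Saa2, -0.73 for Saa3, -0.50 for Saa4, -1.27 for Orm1, -2.94 for Orm2, -2.01 for Orm3 and -1.39 for Lcn2. On the deposited scale both MDL-800 libraries were below all 3 controls there for all of the genes but Lcn2, 7 of 8, against 9.50% of all tested genes. That count depends on the denominator. With summed reads as denominator, MDL-800 3 was above control 3 for Saa1, Saa3 and Orm2. MDL-800 2 was below control 1, the only pair with Y-linked reads, for each of the 8 genes. This sets 1 library against 1, with no test, and the share of all tested genes lower in that pair was not counted.

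In a limma fit with both treatment and Y-linked reads as terms, none of the 8 genes differed by Y-linked reads at an adjusted p under 0.05, where 2.42% of all tested genes passed. At an unadjusted p under 0.05, 3 of the 8 were found, against 22.7% of all tested genes. That comparison was chosen after seeing the data. Lcn2 had the largest log2 difference of the 8, -2.75 with a standard error of 0.59 (limma adjusted p = 0.0753). It was at 9.10 and 25.7 FPKM in the libraries with Y-linked reads and at 47.3 FPKM or more in the others. Saa2 had -1.15 with a standard error of 0.35 (limma adjusted p = 0.141), and Saa4 had 0.78 with a standard error of 0.18 (limma adjusted p = 0.0870). Saa1 was nearly level, at 0.07 with a standard error of 0.35. Summed macrophage markers were also lowest in MDL-800 2 and control 1, at 297.6 and 331.1 FPKM, and their part in these differences was not tested.

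The separation of the groups depended on the denominator behind the FPKM values. Summed reads divided by the deposited denominator gave 1.06, 1.28 and 1.09 in MDL-800 1, 2 and 3, against 1.25, 0.995, 1.24 and 1.22 in control 1 to 4. With summed reads as the denominator, Orm1 alone of the 8 genes kept every MDL-800 library below every control (1 of 8, against 1.47% of all tested genes). Saa1, Saa3 and Orm2 then overlapped through MDL-800 3 and control 3, at 80.7 and 76.2 for Saa1, 4.13 and 3.68 for Saa3, and 88.6 and 80.4 for Orm2. With median scaling 3 of 8 stayed apart (2.75% of all tested genes), and with quantile normalization 3 of 8 (2.66%). The log2 fold changes moved little with summed reads as denominator, to -1.06 for Saa1, -1.15 for Orm1 and -2.80 for Orm2. The number of the 8 lower at an unadjusted limma p under 0.05 was then 4 (137 of all 10962 tested genes). It was 4 with quantile normalization (225 of 11394), 3 with limma voom on recovered reads (116 of 11394) and 6 with median scaling (208 of 11394).

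Other genes of the acute phase response were described by list. Of 18 other acute phase plasma proteins, 15 were below 0 and none passed limma, with a median log2 fold change of -0.41. At an unadjusted limma p under 0.05, 2 of 18 were lower, against 1.62% of all tested genes. Lrg1, a secreted leucine-rich glycoprotein, was at 315.3 ± 26.9 FPKM in MDL-800 livers (SD, n = 3), with 754.2 ± 271 FPKM in control livers (SD, n = 4), a log2 fold change of -1.17. Itih3, an inter-alpha-trypsin inhibitor chain, had -0.57, and Hpx, which binds free heme, -0.65. The 8 genes described here thus had a lower median than the rest of the response. That difference was not tested.

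Genes for plasma proteins whose synthesis is reduced in inflammation had values on both sides of 0. Of 7 such negative acute phase genes, 4 were below 0, with a median of -0.20 and no gene past limma. At an unadjusted limma p under 0.05, 1 of 7, Trf, was lower, against 1.62% of all tested genes. Every MDL-800 library lay below every control library for 2 of 7, Trf and Ahsg, against 2.42% of all tested genes. The same held for 2 of the 18 other acute phase genes. Trf, transferrin, was at 593.1 ± 141 FPKM in MDL-800 livers (SD, n = 3), with 1146 ± 527 FPKM in control livers (SD, n = 4), highest in control 4 at 1919 FPKM. Ahsg, fetuin-A, had a log2 fold change of -0.40, and Apoa4, an intestinal and hepatic apolipoprotein, 0.43.

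Upstream of these genes, 21 of 26 cytokines, receptors and signal transducers were tested, 15 were below 0, and the median was -0.27. None passed limma at an adjusted p under 0.05, and 4 of 21 were lower at an unadjusted p under 0.05, against 1.62% of all tested genes. Every MDL-800 library lay below every control library for 4 of 21, against 2.42% of all tested genes. Socs3, a STAT3 target that damps interleukin-6 signalling, had 2.78, 4.01 and 3.43 FPKM in MDL-800 1, 2 and 3, against 7.99, 8.27, 6.55 and 7.55 FPKM in control 1 to 4. Its groups did not overlap, with a log2 fold change of -0.97, an exact permutation p of 0.0286, the smallest possible, and a limma adjusted p of 0.467. Bcl3, an NF-kB cofactor, was at 12.6 ± 3.71 FPKM in MDL-800 livers (SD, n = 3), with 20.1 ± 3.21 FPKM in control livers (SD, n = 4), and Il1r1, the interleukin-1 receptor, at 4.401 ± 1.02 FPKM in MDL-800 and 9.60 ± 3.90 FPKM in control. The inducing cytokine Il6, named outside the rule for named genes, was at 0.0847 FPKM or less in every library. Cebpb and Stat3, likewise named outside that rule, had log2 fold changes of -0.45 and -0.28 and overlapped between groups.

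Receptors and partners of the encoded proteins included genes with values on both sides of 0. Of 13 listed, 8 were tested, 6 were below 0 and none had an unadjusted limma p under 0.05. Cd36, a scavenger receptor that binds serum amyloid A, was at 68.1 ± 28.4 FPKM in MDL-800 livers (SD, n = 3), with 32.6 ± 17.6 FPKM in control livers (SD, n = 4). Fpr2, a formyl peptide receptor on neutrophils that binds serum amyloid A, was at 1.78 ± 1.07 FPKM in MDL-800 and 7.91 ± 10.1 FPKM in control, where control 2 held 22.8 FPKM. Asgr2, a subunit of the receptor that clears desialylated orosomucoid, had a log2 fold change of -0.37. Among 5 tested lipocalins outside the 8 genes, 3 were below 0 with a median of -0.23. Ptgds had -0.86 at a level of 0.405 ± 0.245 FPKM in MDL-800 livers (SD, n = 3), with 1.71 ± 1.20 FPKM in control livers (SD, n = 4), Ambp -0.30 and C8g -0.23.

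Likeness of pattern was measured as Pearson r over the 7 libraries with the mean of the standardized log2 values of the 8 genes, as a description. The genes most like that mean were Gripap1 (r = 0.973), Alyref2 (0.965), Tifa (0.964), Tank (0.949) and Baz2a (0.938). Tifa and Tank encode adaptors in NF-kB signalling. The 5 genes were picked only for the highest r among the tested genes outside the 8. Over 7 libraries such a pick gives high values by itself, and a shared function of the 5 was not tested. Tifa had 11.1, 10.4 and 13.7 FPKM in MDL-800 1, 2 and 3, against 14.7, 15.4, 15.4 and 16.6 FPKM in control 1 to 4. The log2 fold changes of these 5 genes ran from -0.38 to -0.17, smaller in size than those of the 8. Among the 8 themselves r ran from 0.210 for Saa4 to 0.880 for Orm2, and each of them is part of the mean it is set against.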

How the data were processed

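The labels' protocols name lysis of liver, low-input SMARTer cDNA synthesis with amplification, sonication and an NEBNext library kit. Gene expression was deposited by the authors as FPKM in 1 table, beside coordinates and listed lengths. The tools named in the submitters' processing notes are Bowtie2 2.1.0, TopHat2 2.0.14 and Cufflinks 2.2.1, and the build named there is mm9, but the listed coordinates are GRCm38's. The tool that counted reads was not stated. In each library FPKM times listed length came in whole steps (100% of values above 0, tolerance 0.01), from which reads were recovered.

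Values were tested as log2(FPKM + 1), keeping genes whose mean reached 1 FPKM, with limma 3.58.1 in R 4.3.3 (lmFit, eBayes with a trend, two-sided) and Benjamini-Hochberg adjustment over all tested genes at 0.05. Fold changes on this scale understate those of low genes. The exact permutation test took the absolute difference of group means over 35 assignments. Sequences were aligned with Biopython 1.88, and plots were drawn with matplotlib 3.10.9. The fit was checked on simulated data. Named genes were the 8, the 3 tested genes with the smallest p in each list, and the 5 most alike in pattern. Cell type markers at 0 in all libraries, such as Lep, were also named. Other genes given with values, such as Xist, Il1b, Il6, Cebpb, Stat3, Adipoq, Plin1, Retn and the pseudogenes, fell outside that rule. The 8 genes and the lists were chosen with earlier results of these data known. Alternatives were another pseudocount, other filters, other scalings, a replicate block, array weights, a term for Y-linked reads or only libraries without them, limma voom on reads, and leaving out each library. Summed reads as denominator, and the libraries without Y-linked reads less control 4, were added after seeing the data. The labels state no pairing by replicate number. Deviations from the group mean of same-numbered libraries correlated at -0.587, -0.553 and 0.0565. The highest correlation was 0.771, between MDL-800 2 and control 1, the libraries with Y-linked reads. Because that difference shapes the deviations, these values cannot decide whether replicate numbers pair the libraries. Some cell type markers overlap other lists (Alb is also a negative acute phase gene). Intervals cover the spread between libraries only, and amplified reads are not independent molecules.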

Additional observations from a re-analysis of the deposited data

Results flagged for a closer look

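Among 40 sets of control values examined on the FPKM scale for a library far from the other 3, 6 were found. Chance gives about 1 in 20 only if values are normally distributed, which was not checked. The log2 scale was not examined, and some sets are sums that include others, so the count is a description. Orm2 stood at 2392 FPKM in control 4, and the summed FPKM of Orm1, Orm2 and Orm3 at 7149 there. Control 4 also held Cfd, an adipocyte marker, at 13.2 FPKM. Control 2 stood apart in the summed neutrophil markers, at 356.4 FPKM, and in 2 of them, S100a9 at 159.9 FPKM and Ngp at 25.2 FPKM, which are part of that sum. What set these libraries apart was not tested.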

How the results depend on the processing

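Across 19 alternatives, all 152 log2 fold changes of the 8 genes stayed below 0 and none passed limma, with adjusted p between 0.514 and 0.9999. The median of the 8 genes, -1.21, ran from -1.50 to -0.86 when a library was left out and from -1.23 to -0.91 otherwise. Without control 4 in the libraries without Y-linked reads, 2 against 2, Lcn2 was at -0.76 and Orm2 at -1.73. No gene passed across the table under any alternative but leaving out 1 library, where the count ran from 0 to 1, the 1 being found without MDL-800 1 and without control 1. The count at an unadjusted p under 0.05 was 553, and it was 1083 without a filter on low values, 305 with a mean of at least 5 FPKM, 946 with array weights, 274 without MDL-800 3 and 948 without control 1. Of those 553, 66.5% were higher in MDL-800, against 81.9% with summed reads as denominator, 84.6% with voom and 55.7% with array weights. Whether replicate numbers pair the libraries is not known. The replicate block on 6 libraries gave -0.97 for Lcn2 and a median of -1.08. It called no gene, and 190 genes had an unadjusted limma p under 0.05. The fewest reads behind any value of the 8 genes were 69, for Orm3 in MDL-800 1. Whether depth limited any of these values was not tested.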

Other observations

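Saa1 and Saa2 stand beside each other on chromosome 7 in opposite directions, and their levels over the 7 libraries had a Pearson r of 0.765 on the log2 scale, less than the 0.905 of Saa1 with Saa3. These are descriptions over 7 libraries that share a treatment contrast and Y-linked differences. The Saa2 share of both genes was lower in each library with Y-linked reads than in any other library, in MDL-800 and in control alike.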
